A study of Mus musculus with 2 samples.

Results

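The fibroblast growth factor (Fgf) receptor genes Fgfr1, Fgfr2, Fgfr3, Fgfr4 and Fgfrl1 were described by level and by splice form in the face of the mouse embryo. They were taken by symbol, all 5 matched by Ensembl identifier in both libraries, out of 21474 protein-coding genes with a symbol in the deposited tables. The study held 1 group of 2 libraries, replicate 2 and replicate 1, made from the facial prominences of strain B6NCrl at embryonic day 14.5, with no treatment or genetic change named. Each library came from 10.0 ng of total RNA. The labels name a single cranioface, from a different collection date for each replicate, but also a pool of both sexes, so whether a library stands for 1 embryo is not settled. With 1 group there was nothing to test between conditions, and the spread given throughout is that between these replicates. In such whole tissue, fewer cells of a type and less RNA per cell cannot be told apart.

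Fgf receptors are membrane proteins with up to 3 immunoglobulin-like loops outside the cell and, in Fgfr1 to Fgfr4, a tyrosine kinase inside it. A ligand and heparan sulfate pair the receptors, whose kinases then phosphorylate each other and adaptor proteins. Fgfrl1 binds Fgf ligands but lacks the kinase. In Fgfr1, Fgfr2 and Fgfr3 the second part of the third loop is encoded by either of a pair of exons, called IIIb and IIIc, and the choice sets which ligands bind. Epithelial cells mostly use IIIb and mesenchymal cells mostly IIIc, and in the developing face ligands made in one layer act on receptors of the other. Mutations in FGFR1, FGFR2 and FGFR3 cause craniosynostosis syndromes in people.

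Exons that set ligand choice are shown for Fgfr2 (IIIb), Fgfr3 (both forms) and Fgfr4 as examples of the exons by which transcripts were assigned to a form. The pairs were located in the annotation (GENCODE M21, genome build mm10) as the only pair of coding exons that stand between the same neighbours and never occur together in a protein-coding model, the one nearer the 5′ end being IIIb. In Fgfr3, on the plus strand, IIIb is chr5:33731281-33731431 and IIIc chr5:33732117-33732261, with 685 bases of intron between them. In Fgfr2, on the minus strand, IIIb is chr7:130199758-130199905. Fgfr4 has a single exon at this place, chr13:55160249-55160387 on the plus strand, and Fgfrl1 has no such exon. The sequences run 5′ to 3′ along the gene's strand. Capitals mark bases that the exons of a form share in Fgfr1, Fgfr2 and Fgfr3 and that no exon of the other form has at the aligned position, which gives 16 bases in each IIIb exon and 28 in each IIIc exon. In the Fgfr4 exon capitals mark the 12 of those 28 IIIc bases that it also carries.
Fgfr2 IIIb: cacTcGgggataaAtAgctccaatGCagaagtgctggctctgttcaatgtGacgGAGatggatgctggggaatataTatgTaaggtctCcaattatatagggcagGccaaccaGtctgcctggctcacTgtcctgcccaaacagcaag
Fgfr3 IIIb: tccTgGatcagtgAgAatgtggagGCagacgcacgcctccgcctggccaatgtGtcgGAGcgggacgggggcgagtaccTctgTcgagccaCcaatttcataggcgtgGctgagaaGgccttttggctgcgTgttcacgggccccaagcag
Fgfr3 IIIc: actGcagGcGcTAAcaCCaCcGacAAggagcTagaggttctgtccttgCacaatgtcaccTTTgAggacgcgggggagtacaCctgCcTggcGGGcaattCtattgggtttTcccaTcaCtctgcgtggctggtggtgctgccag
Fgfr4 single: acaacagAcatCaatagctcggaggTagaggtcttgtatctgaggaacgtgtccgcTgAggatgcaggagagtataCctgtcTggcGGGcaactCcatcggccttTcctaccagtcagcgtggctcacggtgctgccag

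The IIIc exons resembled each other more than the IIIb exons did. Aligned IIIc exons were 75.2% to 80.7% identical in bases. The IIIb exons of Fgfr1 and Fgfr2 were 78.2% identical, while that of Fgfr3 shared only 53.4% with Fgfr1 and 54.7% with Fgfr2. Between a IIIb and a IIIc exon identity lay between 43.2% and 55.4%. The Fgfr4 exon was 66.2% to 71.2% identical to the IIIc exons and 51.8% to 63.3% to the IIIb exons, although it carried a like share of the marking bases of each, 12 of 28 for IIIc and 7 of 16 for IIIb. The gene family showed in exon structure too. The top full-length models of Fgfr1, Fgfr2, Fgfr3 and Fgfr4 had 8 exon lengths in common, and Fgfrl1 had none of them. Their coding exons amount to 820 codons in Fgfr1-202, 723 in Fgfr2-207, 801 in Fgfr3-209 and 799 in Fgfr4-201, against 529 in Fgfrl1-201.

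All 5 receptor genes were expressed, as were 63.9% of all protein-coding genes. At gene level Fgfr1 and Fgfr2 stood far above the other receptors. Levels are in TPM, the authors' reads per effective length scaled to a common total, which allows levels of different genes to be compared. Fgfr1, broadly used in mesenchyme, had 95.8 TPM in replicate 2, against 108.6 TPM in replicate 1 (mean 102.2 ± 9.04, SD, n = 2). Fgfr2, known for its roles in palate, tooth and gland epithelium and in bone, had 82.1 TPM in replicate 2, against 98.1 TPM in replicate 1 (90.1 ± 11.3). The ranges of these genes overlapped, so their gene levels could not be put in order beyond the spread, although Fgfr1 was higher within each library. Transcripts with the IIIb or IIIc exon gave only 36.4 TPM in replicate 2 and 40.6 TPM in replicate 1 for Fgfr2. For Fgfr1 such transcripts gave 83.5 and 93.8 TPM, with no overlap.

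Fgfrl1, the receptor without a kinase, had 28.8 TPM in replicate 2, against 27.98 TPM in replicate 1 (28.4 ± 0.587, SD, n = 2). Fgfr3, which in growing cartilage restrains bone lengthening, had 17.5 TPM in replicate 2, against 21.2 TPM in replicate 1 (19.3 ± 2.58). Fgfr4, known in the embryo from developing muscle, had 12.4 TPM in replicate 2, against 16.01 TPM in replicate 1 (14.2 ± 2.53). The ranges of Fgfr2 and Fgfrl1, of Fgfrl1 and Fgfr3, and of Fgfr3 and Fgfr4 did not overlap, so the order below Fgfr2 held in both libraries. Fgfr1 made up 40.5% of the summed TPM of all 5 genes in replicate 2 and 39.9% in replicate 1, and Fgfr2 34.7% and 36.1%.

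**Figure D1:**
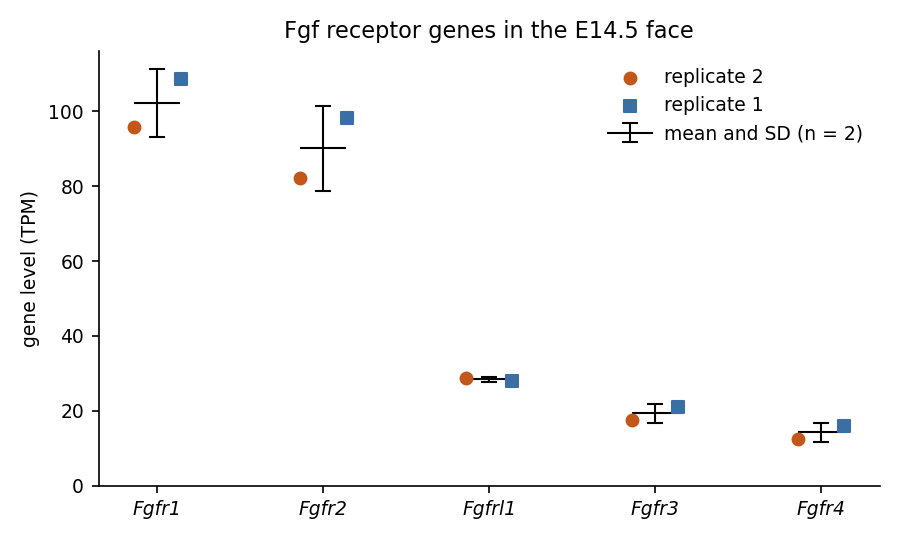
Gene level in TPM (vertical axis, from 0) of each Fgf receptor gene (horizontal axis), with replicate 2 as circles, replicate 1 as squares, and bars for mean and SD of both. Fgfr1 and Fgfr2 sit between 82.1 and 108.6 TPM and all others at or below 28.8 TPM.

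Counting error at gene level was small beside these levels. Fgfr1 rested on 8855 expected counts in replicate 2 and 7743 in replicate 1, and Fgfr4, the least covered, on 967 and 953, out of 37738872 and 30919488 in all. The exact Poisson interval (95%) of Fgfr4 was 11.7 to 13.2 TPM in replicate 2 and 15.01 to 17.1 TPM in replicate 1, so counting alone did not span the difference between the replicates. For Fgfrl1 the intervals overlapped, 27.5 to 30.2 TPM in replicate 2 and 26.5 to 29.5 TPM in replicate 1. PCR copies are not independent molecules, so such intervals cover counting error only.

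Between the replicates no receptor gene changed by 2-fold. The log2 ratio of replicate 2 over replicate 1, on log2(TPM + 1), was -0.18 for Fgfr1, -0.25 for Fgfr2, -0.26 for Fgfr3, -0.34 for Fgfr4 and 0.04 for Fgfrl1. Over 10919 protein-coding genes with a mean of at least 5 TPM the median was -0.15, and 0.467% of them (51) were past 2-fold in either direction. The count of 0 of 5 receptor genes is therefore what most genes showed. Set against that median, the ratios of the 5 genes lay between -0.19 for Fgfr4 and 0.19 for Fgfrl1. The cartilage and bone marker lists moved further apart. All 12 chondrocyte genes were lower in replicate 2, with a median log2 ratio of -0.69, and all 10 osteoblast genes were higher, with a median of 0.32. Whether these tissue shares take part in the ratios of Fgfr3 or the other receptors was not tested.

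Among 58 receptor tyrosine kinase genes, Fgfr1 ranked first by mean TPM and Fgfr2 next. The Fgfr2 gene level counts transcripts without the IIIb or IIIc exon too. Axl, a receptor for Gas6, followed with 82.7 TPM in replicate 2, just above Fgfr2 there, and 89.2 TPM in replicate 1. Below them stood the collagen receptor Ddr2 with a mean of 68.2 ± 7.997 TPM and Pdgfra, the platelet-derived growth factor receptor of facial mesenchyme, with 68.0 ± 12.1 TPM (SD, n = 2). The 4 kinase Fgf receptors together gave 19.4% of the summed TPM of all 58 genes in replicate 2 and 19.4% in replicate 1.

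Fgfr3 and Fgfr4 lay in the middle of the same list. Fgfr3, at rank 20, had the same mean as Egfr, the epidermal growth factor receptor, at 19.3 TPM. The endothelial receptors Kdr (22.2 ± 2.68 TPM) and Tie1 (18.2 ± 1.90 TPM) were close to it, as were Epha4, Erbb3 and Ntrk2, whose means ran from 17.6 to 23.0 TPM. Fgfr4, at rank 27, stood between Kit (16.4 ± 0.523 TPM) and Ror2 (13.2 ± 0.976 TPM), with Tek and Tyro3 above and Igf1r below. Fgfr4 overlapped in range with Ror2, Igf1r and Tyro3. Without division by gene length the ranks shifted, since expected counts scaled by depth alone put Fgfr1 at 2, Fgfr2 at 6, Fgfr3 at 22 and Fgfr4 at 33.

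**Figure D2:**
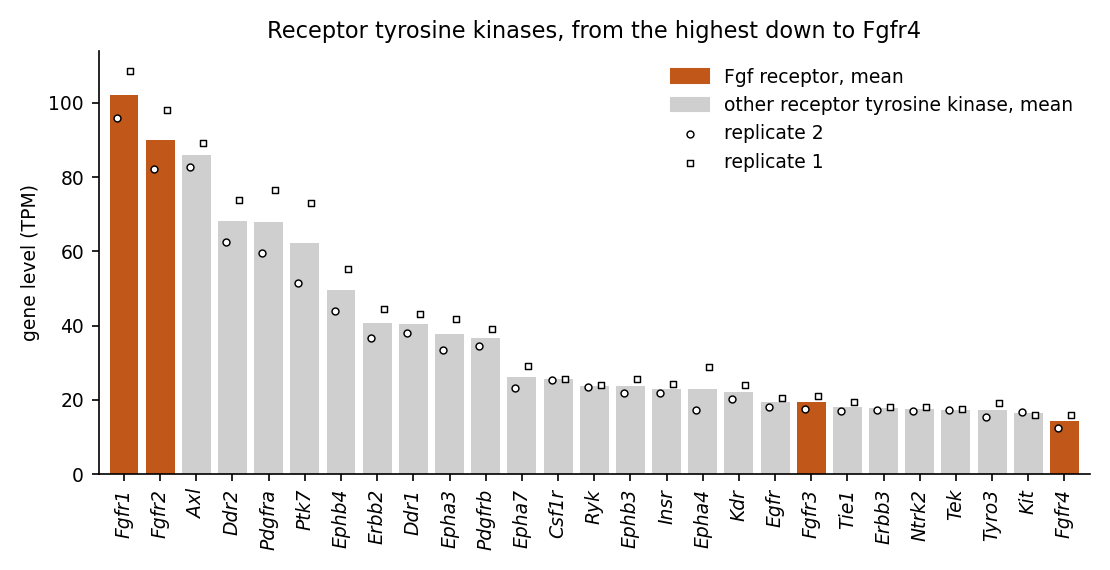
Mean gene level in TPM (vertical axis, from 0) of the receptor tyrosine kinase genes from the highest down to Fgfr4 (horizontal axis, in order of mean), with Fgf receptors in orange, replicate 2 as circles and replicate 1 as squares. Fgfr1 and Fgfr2 lead the list at 102.2 and 90.1 TPM, and Fgfr3 and Fgfr4 lie in its flat part at 19.3 and 14.2 TPM.

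Fgfr1 was almost wholly in the IIIc form, and Fgfr2 and Fgfr3 carried IIIb in a large minority of their transcripts. The IIIb share is the TPM of transcripts holding the whole IIIb exon over that of transcripts holding either exon but not both. For Fgfr1 IIIb transcripts had 2.67 TPM in replicate 2, against 2.52 TPM in replicate 1, beside 80.8 and 91.2 TPM of IIIc. Its IIIb share was 3.20% in replicate 2 and 2.69% in replicate 1 (2.94 ± 0.361, SD, n = 2). This small share rested on 1 model, Fgfr1-214, since Fgfr1-213, the other with the IIIb exon, was listed at 0 in both. Counting any transcript that overlaps either exon by 1 base raised the mean share to 12.1%, and keeping only models of equal length in both annotation releases raised it to 5.41%.

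Fgfr2 had 13.6 TPM of IIIb transcripts in replicate 2 and 18.4 TPM in replicate 1, beside 22.9 and 22.2 TPM of IIIc. Its IIIb share was 37.2% in replicate 2 and 45.3% in replicate 1 (41.3 ± 5.74, SD, n = 2). The IIIc level was thus nearly alike in both libraries, and the IIIb level was the one that was lower in replicate 2. Epithelial markers did not all go that way, with 5 of 12 higher in replicate 2 and 7 lower, and a summed level of 982 TPM in replicate 2, against 1010 TPM in replicate 1. Their part in the Fgfr2 share was not tested.

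Fgfr3 had 6.81 TPM of IIIb in replicate 2 and 6.62 TPM in replicate 1, beside 9.22 and 11.9 TPM of IIIc. Its IIIb share was 42.5% in replicate 2 and 35.7% in replicate 1 (39.1 ± 4.78, SD, n = 2). The IIIc sum includes the retained-intron model Fgfr3-204, at 0.78 TPM in replicate 2 and 0.8 TPM in replicate 1. Protein-coding models alone gave 8.44 and 11.1 TPM of IIIc. Their IIIb share was 44.7% in replicate 2 and 37.3% in replicate 1, with a mean of 41.0%. Here the IIIb level was alike in both and the IIIc level was lower in replicate 2. In both libraries the IIIb share of Fgfr1 was far under those of Fgfr2 and Fgfr3, with no overlap. By TPM, Fgfr2 and Fgfr3 did not differ beyond their spread, and their order turned round between the replicates. This depended on the weighing. With expected counts as weights the Fgfr2 share was 26.9% in replicate 2 and 33.3% in replicate 1, and the Fgfr3 share 43.5% and 36.5%, so Fgfr3 was higher in both with no overlap. Models of equal length in both annotation releases gave 25.9% and 34.8% for Fgfr2 and 42.9% and 36.4% for Fgfr3, again with no overlap. Among Fgfr2 models this filter leaves out only Fgfr2-211, a IIIb model, so it could only lower the Fgfr2 share. Expected counts give more weight to longer models, and the main Fgfr2 IIIc model is longer than its IIIb models. These weighings are therefore not independent support for an order of Fgfr2 and Fgfr3.

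Few reads are expected on these short exons, where reads were estimated and not counted. With even coverage, the IIIb transcripts of Fgfr1 would put 17.0 reads on the IIIb exon in replicate 2 and 12.4 in replicate 1. The same estimate gives 85.3 and 89.6 reads for Fgfr2 IIIb, and 43.4 and 32.7 for Fgfr3 IIIb. On these reads, exact binomial intervals (95%) of the share ran from 1.92% to 5.19% in replicate 2 and 1.38% to 4.60% in replicate 1 for Fgfr1. For Fgfr2 they ran from 31.1% to 44.1% in replicate 2 and 38.6% to 52.9% in replicate 1, and for Fgfr3 from 33.1% to 53.3% and 26.8% to 47.5%. The replicates' intervals overlapped for each gene, which does not by itself show that the replicates agree. The intervals rest on estimated reads and leave out the error of dividing reads among models.

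The size of the Fgfr2 share depended on how transcripts were weighed. With expected counts in place of TPM it was 30.1% on average, and with only models of unchanged length in the later annotation it was 30.3%. The IIIc model Fgfr2-207 is 4223 bases long, while the IIIb models Fgfr2-208 and Fgfr2-211 are 2296 and 3053 bases long in the deposited tables. Fgfr2-211 is 4311 bases long in GENCODE M21.

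**Figure D3:**
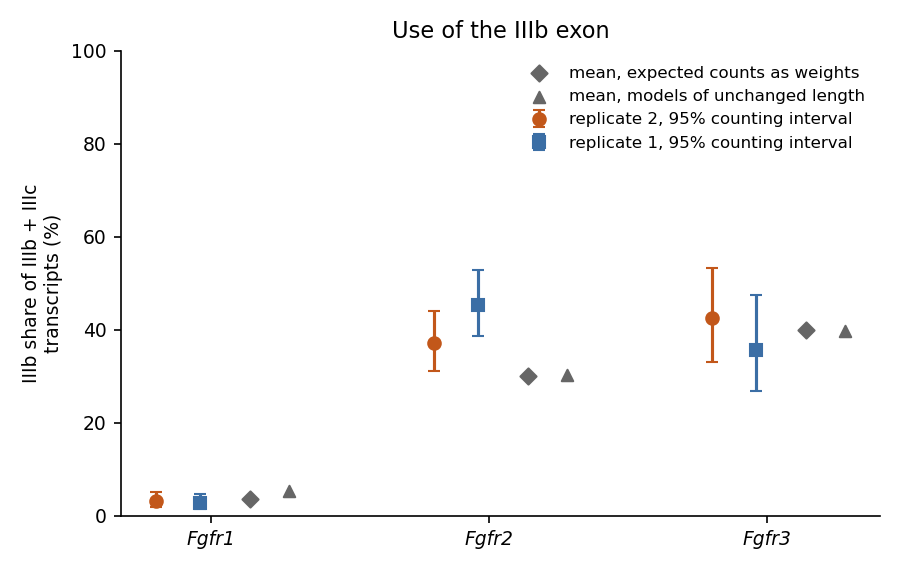
IIIb share in percent of IIIb and IIIc transcripts (vertical axis) for Fgfr1, Fgfr2 and Fgfr3, for replicate 2 (circles) and replicate 1 (squares) with exact binomial intervals, and as the mean of both under other weighings (grey). Fgfr1 lies between 2.69% and 5.41% in all weighings drawn, Fgfr2 between 30.1% and 45.3%, and Fgfr3 between 35.7% and 42.5%.

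Over the 3 genes, IIIb transcripts summed to 23.0 TPM in replicate 2, against 27.6 TPM in replicate 1, and IIIc transcripts to 112.9 and 125.3 TPM. IIIb was 16.9% of the total in replicate 2 and 18.02% in replicate 1. Fgfr2 gave 58.8% of the IIIb TPM in replicate 2 and 66.8% in replicate 1. By expected counts its part was 46.5% in replicate 2 and 54.7% in replicate 1, and with models of equal length 45.7% and 56.5%, in each case the largest part of the 3 genes. By TPM, Fgfr3 gave 29.6% and 24.0%, and Fgfr1 11.6% and 9.15%. Most IIIc came from Fgfr1, 71.6% in replicate 2 and 72.8% in replicate 1.

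Fgfr1 was spread over a few long coding transcripts. Fgfr1-202, with all 3 loops and the IIIc exon, was the highest transcript of any receptor at 40.9 TPM in replicate 2, against 50.9 TPM in replicate 1, or 42.7% and 46.9% of the gene by the authors' percentages. Fgfr1-203, which lacks the 267-base exon of the first loop, had 30.6 TPM in replicate 2, against 29.6 TPM in replicate 1. Fgfr1-201, again with 3 loops, had 9.26 and 10.5 TPM. The first-loop exon was kept in 60.1% of full-length protein-coding transcripts by TPM in replicate 2 and 65.5% in replicate 1 (62.8 ± 3.78, SD, n = 2). Exon content was read from GENCODE M21, in which Fgfr1-201 and Fgfr1-203 differ in length from the deposited tables. Models of changed length held 44.9% of the Fgfr1 TPM in replicate 2 and 40.8% in replicate 1. The first loop is known to damp ligand binding, so the forms with 3 loops and without the first differ in affinity.

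Other Fgfr1 models were minor. Fgfr1-206, annotated as a retained intron, had 7.25 TPM in replicate 2, against 6.78 TPM in replicate 1. Fgfr1-208, annotated for nonsense-mediated decay (NMD), the clearance of transcripts with an early stop, holds both the IIIb and the IIIc exon and had 3.17 and 4.22 TPM. Among full-length protein-coding transcripts, the exon after the first loop ended at the longer of its edges, with 90 in place of 84 bases. This held in 47.8% of them in replicate 2 and 42.7% in replicate 1.

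Fgfr2 differed from Fgfr1 in that its highest transcript held neither alternative exon. Fgfr2-217 had 27.1 TPM in replicate 2, against 28.8 TPM in replicate 1, 33.0% and 29.3% of the gene. It has 7 exons and 2425 bases, of which 2111 are shared with other Fgfr2 models. Its remaining 314 bases lie in 2 exons 2815 kb upstream, and all of them fall within exons of Ctbp2, a transcriptional corepressor gene on the same strand with 47.7 TPM in replicate 2, against 56.0 TPM in replicate 1. Reads in those bases cannot be assigned to Fgfr2 by position alone. Because of this model and others without the pair, transcripts with IIIb or IIIc made up only 44.3% of the Fgfr2 level in replicate 2 and 41.4% in replicate 1, against 87.1% and 86.3% for Fgfr1.

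Among the full-length Fgfr2 forms, the IIIc model Fgfr2-207 led with 20.9 TPM in replicate 2, against 21.4 TPM in replicate 1. The IIIb models were Fgfr2-208 with 7.97 TPM in replicate 2, against 11.9 TPM in replicate 1, and Fgfr2-211 with 5.58 and 6.55 TPM. The other 8 of its 10 IIIb models were listed at 0 in both. Fgfr2-226, annotated for NMD and skipping both alternative exons, had 6.48 TPM in replicate 2, against 9.87 TPM in replicate 1. The retained-intron model Fgfr2-221 had 9.12 and 8.78 TPM. Fgfr2-224, a short retained-intron model, was listed at 0 in replicate 2 and at 5.16 TPM in replicate 1, on 24 expected counts. In all, 15 of 26 Fgfr2 models were listed at 0 in both libraries.

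Unlike Fgfr1, Fgfr2 seldom kept its first loop in full-length protein-coding models, by the transcript estimates. The exon shares given here count such models only. Fgfr2-226, annotated for NMD, with 17 exons and 6.48 TPM in replicate 2, against 9.87 TPM in replicate 1, was left out. Whether it holds these exons was not examined, so the shares could differ with it. The 267-base first-loop exon of Fgfr2 was present in 5.27% of spanning protein-coding transcripts by TPM in replicate 2 and 1.87% in replicate 1 (3.57 ± 2.41, SD, n = 2). This Fgfr2 share rested on Fgfr2-215 alone, at 1.92 TPM in replicate 2, against 0.76 TPM in replicate 1. The authors' interval for its TPM was 0.386 to 3.83 in replicate 2 and 5.7e-06 to 2.42 in replicate 1. Among these protein-coding models the ranges of Fgfr1 and Fgfr2 for the first-loop exon were far apart. A 78-base exon next to that exon was kept in 27.2% of the counted protein-coding transcripts in replicate 2 and 31.1% in replicate 1, again without Fgfr2-226. A later exon ended at a nearer splice site, 197 in place of 203 bases, in 57.5% of the counted transcripts in replicate 2 and 52.8% in replicate 1. With Fgfr2-226 left out, which end is the more frequent over all transcripts is not settled. Those 6 bases encode the valine-threonine pair where the adaptor Frs2 binds Fgf receptors. With expected counts as weights the shorter end averaged 66.6%. By either weighing the shorter end rested on Fgfr2-207 alone.

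Fgfr3 had its IIIb form in 1 model and its IIIc form in several. Fgfr3-211, the IIIb model, had 6.81 TPM in replicate 2, against 6.62 TPM in replicate 1. The IIIc model Fgfr3-209 had 5.28 TPM in replicate 2, against 7.87 TPM in replicate 1, so the highest Fgfr3 transcript was the IIIb one in replicate 2 and the IIIc one in replicate 1. Fgfr3-210, also IIIc, had 2.07 and 2.16 TPM, and Fgfr3-201 0.94 and 0.76 TPM. The retained-intron model Fgfr3-205 had 1.47 TPM in replicate 2, against 1.77 TPM in replicate 1. A 54-base exon early in Fgfr3 was kept in 99.02% and 98.2% of spanning full-length protein-coding transcripts.

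Fgfr4 and Fgfrl1, which have no such pair, were simpler. Fgfr4-201, the only coding Fgfr4 model, had 11.7 TPM in replicate 2, against 14.9 TPM in replicate 1, 94.0% and 92.8% of the gene. The short processed transcript Fgfr4-203 had 0.54 and 0.91 TPM. Fgfrl1-201 had 24.2 TPM in replicate 2, against 23.0 TPM in replicate 1, and Fgfrl1-202, which lacks a 273-base exon, 4.64 and 4.97 TPM. The 273-base exon was thus kept in 83.9% of Fgfrl1 transcripts in replicate 2 and 82.2% in replicate 1. Both Fgfrl1 models also differ in length between the annotation releases.

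**Figure D4:**
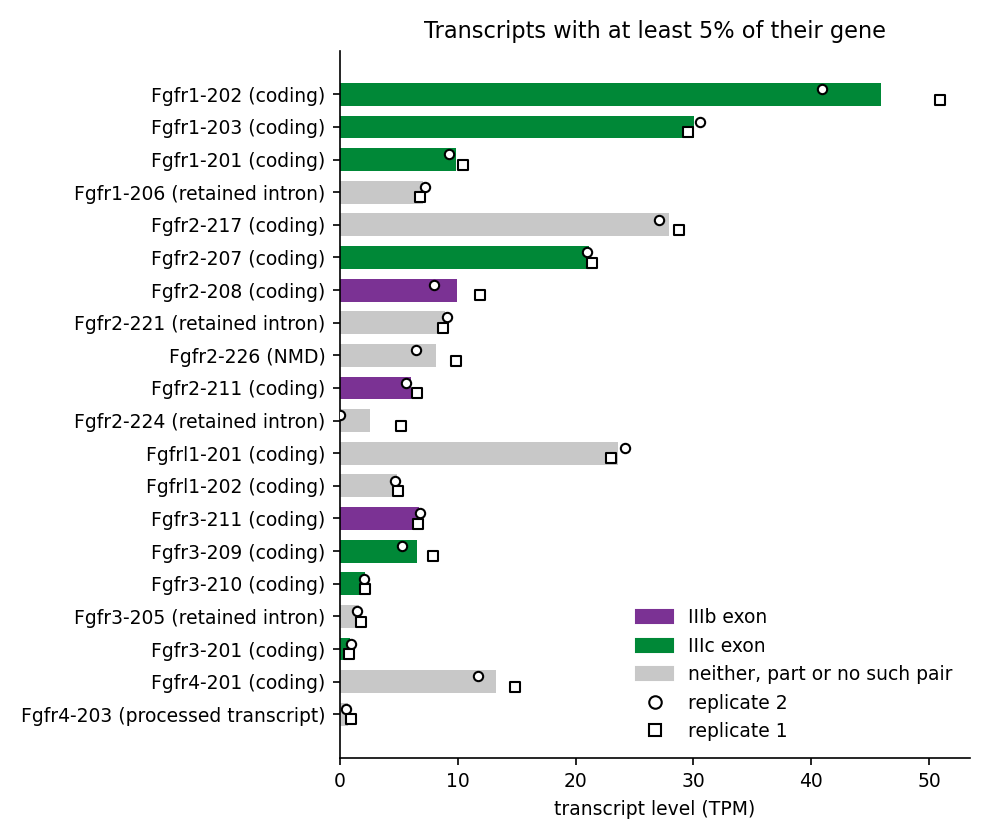
Level in TPM (horizontal axis, from 0) of each receptor transcript with at least 5% of its gene in either library, grouped by gene, with bars for the mean, circles for replicate 2 and squares for replicate 1. Purple bars hold the IIIb exon and green ones IIIc; grey Fgfr2-217, at 27.1 and 28.8 TPM, is the highest Fgfr2 transcript.

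Transcript levels were less certain than gene levels. The authors' posterior SD of the count was at most 3.99 reads for any receptor gene, but up to 139.8 reads for an Fgfr1 transcript, 121 for an Fgfr2 transcript and 105 for an Fgfr3 transcript. Reads in exons that models share are divided by estimate. Fgfr1-215 shows the effect, with 2.80 expected counts in replicate 2 but a posterior mean of 121 counts. It was chosen after its values were seen. Strand handling is not given in the sources used here, and exons of Fgfr1 overlap 164 bases of the antisense gene Gm16159, listed at 0 TPM in replicate 2, against 0.13 TPM in replicate 1. Exons of Fgfr3 overlap 998 bases of G630022F23Rik on the opposite strand, not analysed here.

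Ligands for both receptor forms were expressed, all of them below Fgfr1, Fgfr2, Fgfr3 and Fgfrl1 at gene level in both libraries. Of 4 genes for ligands that act on IIIb forms, 2 reached 1 TPM in both libraries. Fgf7, a mesenchymal ligand of Fgfr2 IIIb, had 11.8 TPM in replicate 2, against 13.7 TPM in replicate 1 (12.7 ± 1.39, SD, n = 2). The Fgf7 range overlapped that of Fgfr4. Fgf10, needed for palate, gland and limb outgrowth, had 7.21 TPM in replicate 2, against 8.61 TPM in replicate 1. Fgf3 stayed at 0.74 and 0.69 TPM, and Fgf22 at 0.20 TPM in replicate 2 and 0 in replicate 1. Over all protein-coding genes 63.9% reached 1 TPM in both libraries.

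Of 10 genes for ligands that act mainly on IIIc forms, 5 reached 1 TPM in both, beside 63.9% of all protein-coding genes. Fgf18, which acts on bone and cartilage, led with 12.2 TPM in replicate 2, against 12.4 TPM in replicate 1. Fgf9, which also acts on Fgfr3 IIIb, had 5.88 TPM in replicate 2, against 8.54 TPM in replicate 1. Fgf6, known from muscle, had 5.40 and 5.42 TPM, and Fgf2 2.16 and 2.40 TPM. Fgf8, an early facial epithelial ligand, was the lowest by mean, at 0.08 TPM in replicate 2, against 0.20 TPM in replicate 1, where Fgf17, chosen after its values were seen, was lower at 0.16 TPM. Fgf1, which binds all forms, had 2.62 and 2.55 TPM. The IIIb ligands summed to 19.9 TPM in replicate 2, against 23.0 TPM in replicate 1, and the IIIc ligands to 29.5 and 33.0 TPM.

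The endocrine ligands were low. Fgf21 had 0.80 TPM in replicate 2, against 0.37 TPM in replicate 1, and Fgf23 was listed at 0 in both. Fgf15 had 0.30 TPM in replicate 2, against 3.64 TPM in replicate 1, on 12.9 and 123 expected counts, which was the only ligand past 1 TPM in 1 library alone. Their coreceptors Kl and Klb, which hold endocrine ligands to the receptors, were at 0.31 and 0.43 TPM in replicate 2 and 0.29 and 0.15 TPM in replicate 1. Kl was chosen after its values were seen.

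**Figure D5:**
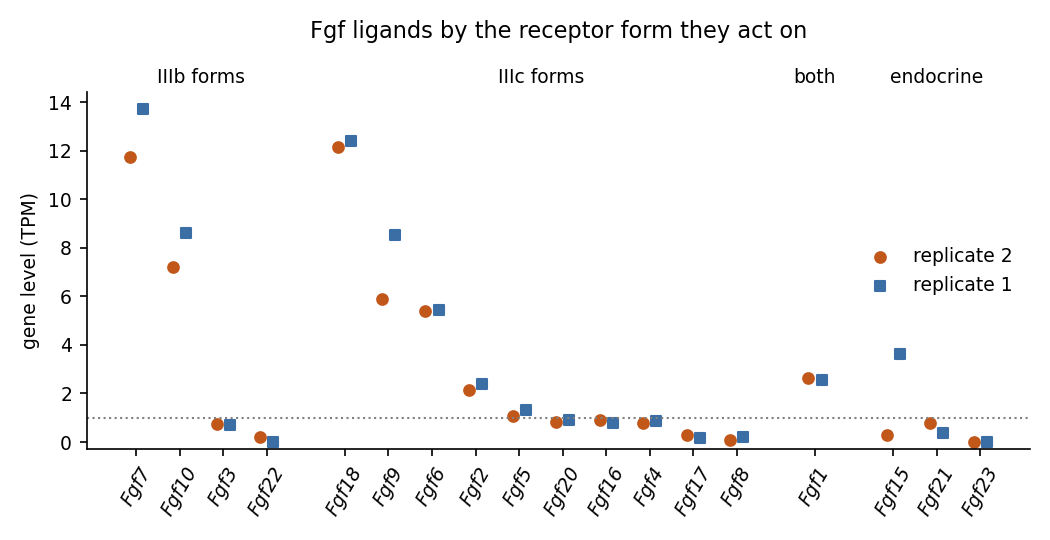
Gene level in TPM (vertical axis) of Fgf ligand genes, grouped by the receptor form they act on, with replicate 2 as circles, replicate 1 as squares and a dotted line at 1 TPM. Fgf7 and Fgf18 are highest at 11.8 to 13.7 TPM, and Fgf15 is the gene whose replicates lie on either side of the line.

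The other genes that receptors need were mostly expressed. Of 13 coreceptor and Fgf-binding genes, 11 reached 1 TPM in both libraries, beside 63.9% of all protein-coding genes. The heparan sulfate proteoglycans led, with Gpc3 at 528 TPM in replicate 2, against 692 TPM in replicate 1. Sdc1 had 85.4 and 115 TPM, Gpc1 78.8 and 75.5 TPM, and Sdc2 67.9 and 74.0 TPM. All 11 adaptor and effector genes were expressed, with means from 3.22 TPM for Frs3 to 58.4 TPM for Shc1. Grb2, which links receptors to Ras, averaged 49.9 ± 2.12 TPM, Plcg1, the phospholipase bound by the receptor tail, 40.7 ± 4.29 TPM, and Crkl 35.3 ± 2.24 TPM (SD, n = 2).

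All 12 matched target and feedback genes of Fgf signalling were expressed as well, beside 63.9% of all protein-coding genes. Dusp6, a phosphatase that switches off Erk, had 48.0 TPM in replicate 2, against 62.9 TPM in replicate 1. Spry2, an inhibitor of Ras signalling, had 41.1 and 52.8 TPM, and Etv5, a transcription factor induced by Fgf, 28.5 and 35.1 TPM. Spred1 had 20.9 TPM in replicate 2, against 21.6 TPM in replicate 1, and Spred3 was lowest at 1.76 and 2.18 TPM. The median log2 ratio of the list was -0.24, beside -0.15 for all genes compared, with 10 of 12 lower in replicate 2.

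All 15 genes for regulators of the IIIb and IIIc exons were expressed, beside 63.9% of all protein-coding genes. The abundant ones were Hnrnpa1, which represses Fgfr2 IIIb, at 409 TPM in replicate 2, against 508 TPM in replicate 1, Hnrnph1 at 301 and 347 TPM, Srsf1 at 215 and 258 TPM and Hnrnpm at 199 and 220 TPM. Rbfox1 was lowest at 6.05 and 5.87 TPM. The epithelial regulators Esrp1 and Esrp2, which promote the IIIb exon, had 17.4 and 11.3 TPM in replicate 2 and 20.5 and 16.2 TPM in replicate 1. Ptbp1, which represses Fgfr2 IIIb, had 150 TPM in replicate 2, against 198 TPM in replicate 1. Esrp1, Esrp2 and Ptbp1 were chosen after their values were seen.

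The tissue label was matched by markers of the face's cell types. All 12 epithelial, 12 mesenchymal, 12 chondrocyte, 10 osteoblast, 12 skeletal muscle and 8 endothelial genes reached 1 TPM in both libraries, against 2 of 9 brain genes. Over all protein-coding genes the share was 63.9%. Among the brain genes Emx2 was highest at 5.29 TPM in replicate 2, against 6.13 TPM in replicate 1, and Neurod6 lowest by mean at 0.02 and 0.05 TPM. Krt14, a basal epithelial keratin, had 297 and 300 TPM, and Vim, a mesenchymal filament gene, 979 and 1034 TPM. The tissue thus held cells that are known to use IIIb and cells that are known to use IIIc, and the shares given above are averages over them.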

How the data were processed

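Total RNA was sequenced in 2 libraries of 1 group, grouped by the replicate number in the labels. The authors deposited RSEM-style gene and transcript tables on mm10 and GENCODE M4, as each library's companion text says. The sources used here give no aligner, quantifier version or strand setting. The expected count columns hold the authors' read estimates before any depth scaling. The deposited TPM divides them by effective length (99 bases under the length) with scaling over all features. The deposited FPKM served as an alternative. Transcript percentages (percent of the gene's TPM) are the authors', per the file headers. Gene names, exons and sequences were read from GENCODE M21 (also mm10) by Ensembl identifier without version.

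Depth was 37738872 expected counts in replicate 2 and 30919488 in replicate 1. A gene was called expressed at 1 TPM in both. Ratios were on log2(TPM + 1), so changes of low genes are understated, over genes with a mean of at least 5 TPM, and 2-fold as a descriptive limit. Exon pairs were found by code and aligned with MAFFT 7.526. Exact Poisson and binomial intervals are at the 95% level. No test between groups was possible, and the ratio and interval steps were tested on simulated data. Scaling factors for expected counts rounded to whole numbers came from edgeR 4.0.16 and DESeq2 1.42.0 under R 4.3.3. All else ran in Python 3.11.15 with scipy 1.17.1, pandas 2.3.3 and matplotlib 3.10.9.

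The members and the gene lists were chosen with earlier results of these data known. Named were all 5 members, their transcripts with 5% or more of the gene in either library, of longer lists the 4 highest genes and the lowest, all genes of lists under 6, and the 3 receptor tyrosine kinases on either side of each member. Spry3 was not matched. Some genes and sequences that this rule covers are not reported here. Transcripts were assigned to a form only if they held the whole exon. Shares of the other alternative exons count full-length protein-coding models only.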

Additional observations from a re-analysis of the deposited data

How the results depend on the processing

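No paired analysis was possible because the study has 1 group. Of 163 alternative values for 61 results, 120 were labelled unchanged and 43 moved. The limit was the spread between replicates, or a fixed factor for counts of expressed genes and the share past 2-fold. Leaving out a replicate cannot move a level or share past that spread, so those values are no check. Some equal values were labelled moved because they had no spread. For the log2 ratios no reversal could be called, since no receptor gene was past 2-fold. The IIIb share of Fgfr1, 2.94%, was 3.59% with expected counts as weights, 12.1% when any overlap of 1 base with an exon counted, and 5.41% with models of equal length in both annotation releases. That of Fgfr2, 41.3%, was 30.1% with expected counts and 30.3% with equal-length models. The posterior mean and equal-length alternatives were chosen after seeing the data. Rescaling over protein-coding genes raised every receptor by the same factor, to 128.6 TPM for Fgfr1, 113.3 for Fgfr2, 35.8 for Fgfrl1, 24.3 for Fgfr3 and 17.9 for Fgfr4. By expected counts scaled by depth alone the ranks were 2 for Fgfr1, 6 for Fgfr2, 22 for Fgfr3 and 33 for Fgfr4. At 0.5 TPM, 8 of 10 IIIc ligands and 5 of 9 brain genes were called expressed. Without replicate 2, 1 endocrine ligand and 4 brain genes were called, against 0 and 2 without replicate 1. Scaling expected counts by edgeR or DESeq2 factors brought the log2 ratio of Fgfr1 to -0.02 and that of Fgfrl1 to 0.20, with 0 of 5 genes past 2-fold in every scaling. Leaving out either replicate gives the other's level or share, as printed. The exon shares, for which few reads on the exons were estimated, depend on how transcripts are weighed and are less certain than the gene levels.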
